A study of Mus musculus with 8 samples.

Results

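The 4 C1q-like genes of the mouse, *C1ql1* to *C1ql4*, were followed by reduced representation bisulfite sequencing (RRBS) in hepatocytes of young and mid-aged mice. A CpG was taken as a member when it lay in the mm10 gene body, or within 1500 bases upstream of the annotated start site, and was covered by 5 or more reads in every mouse once both strands were summed. Of the 897285 CpGs that could be tested in the whole series, 201 met this rule, with 25 in *C1ql1*, 88 in *C1ql2*, 67 in *C1ql3* and 21 in *C1ql4*. The family was selected on the called CpGs of *C1ql3* in these same mice, so every age value of *C1ql3* below is a description without a test, and tests are given for *C1ql1*, *C1ql2* and *C1ql4*.

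All 8 mice were female C57Bl6/J animals on a control diet, 4 of them mid-aged (40 weeks) and 4 young (10 weeks), and 1 library was made per mouse. Hepatocytes were released from the liver by collagenase perfusion, filtered, and enriched by low-speed centrifugation, washing and a repeat spin, and the share of other liver cells left in the preparations is not known here. The genomic DNA was cut with MspI, an enzyme that cuts at CCGG, and treated with bisulfite, which converts unmethylated but not methylated cytosines. The methylation level of a CpG is the percent of its reads that kept the cytosine, and it averages over all cells of a preparation. Reads over CpGs numbered 84639955 to 118395064 per library in mid-aged mice and 46321447 to 72710972 in young mice, so total reads differed with age.

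The C1q-like proteins are small secreted proteins with a collagen-like stretch and a globular C1q domain at the end of the chain, the domain they share with complement C1q, the cerebellins and adiponectin. They are best known from the brain, where they are released at synapses and bind the adhesion receptor encoded by *Adgrb3*. *C1ql1* is made by the neurons that send climbing fibres to Purkinje cells, and *C1ql2* and *C1ql3* are made at the mossy fibre synapses of the hippocampus, where their products bind kainate receptors. CpGs packed densely around the start of a gene are usually unmethylated, whereas CpGs inside gene bodies and between genes are mostly methylated. RNA was not measured in these 8 mice.

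The 4 genes are built alike, with 1 long coding exon, 1 intron and a second coding exon that completes the globular domain. *C1ql1* (ENSMUSG00000045532.5) lies on the minus strand of chromosome 11 from 102939264 to 102946688, and *C1ql2* (ENSMUSG00000036907.9) on the plus strand of chromosome 1 from 120340582 to 120343174. *C1ql3* (ENSMUSG00000049630.6) lies on the minus strand of chromosome 2 from 13003457 to 13011806, and *C1ql4* (ENSMUSG00000001076.7) on the minus strand of chromosome 15 from 99084086 to 99087817. Their coding sequences of 717 to 864 bases were identical at 72.4% to 76.0% of aligned bases, with 47 CpGs in that of *C1ql4* and 71 in that of *C1ql2*. The last 90 bases of the first coding exon, which encode a part of the globular domain, are shown because they set the homologous CpGs of the 4 genes side by side. They are written 5′ to 3′ in the direction of the gene, from the mm10 assembly, with the tested CpGs in capitals.

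C1ql1, chr11:102945865-102945954, minus strand: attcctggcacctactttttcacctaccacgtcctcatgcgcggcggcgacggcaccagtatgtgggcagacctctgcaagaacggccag
C1ql2, chr1:120341712-120341801, plus strand: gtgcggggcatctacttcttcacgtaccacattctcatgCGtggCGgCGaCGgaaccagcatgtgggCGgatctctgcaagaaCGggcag
C1ql3, chr2:13010260-13010349, minus strand: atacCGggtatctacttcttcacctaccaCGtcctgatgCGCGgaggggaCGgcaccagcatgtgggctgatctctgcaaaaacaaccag
C1ql4, chr15:99087192-99087281, minus strand: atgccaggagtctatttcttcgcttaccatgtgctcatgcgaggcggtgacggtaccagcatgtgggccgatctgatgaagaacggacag

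In this window *C1ql2* and *C1ql3* were identical at 73 of 90 bases, and both had tested CpGs. The 6 tested CpGs of *C1ql2* averaged 3.96% in mid-aged and 4.23% in young mice, whereas the 5 of *C1ql3* averaged 61.9% and 24.8%. At the CpG that starts at base 40 of the window, which both genes hold, *C1ql2* had 2.94% ± 5.21 in mid-aged against 3.17% ± 2.69 in young mice (SD, n = 4 each). *C1ql3* had 66.5% ± 3.45 against 27.5% ± 9.55 at the same place (SD, n = 4 each). At base 51 the levels were 2.82% ± 0.532 against 0.820% ± 1.64 for *C1ql2* and 70.1% ± 6.07 against 32.0% ± 7.27 for *C1ql3*. The homologous exon ends of *C1ql1* and *C1ql4* held CpGs too, but none had 5 reads in every mouse.

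The MspI fragments sampled the genes unevenly. *C1ql3* held 210 CpGs in the genome, 136 of them with a read in any mouse and 67 tested, and *C1ql2* held 199, of which 156 had reads and 88 were tested. *C1ql1* held 229 CpGs with 25 tested, and *C1ql4* 176 with 21 tested. The tested CpGs of *C1ql3* ran from 605 to 2773 bases downstream of the start site, so that neither its upstream window nor the first 604 bases could be tested. Those of *C1ql2* ran from 1495 bases upstream to 2381 downstream, those of *C1ql1* from 365 to 7172 downstream, and those of *C1ql4* from 331 upstream to 3320 downstream. For *C1ql3* the median depth of a tested CpG was 175 reads (mid-aged) and 82 reads (young), and for the other genes it lay between 61 and 164. At 1 of the 88 positions of *C1ql2* (chromosome 1, 120341002) the assembly has no CpG, and it was kept as deposited with at most 2.78% in any mouse.

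*C1ql3* carried more methylation at mid-age than at young age over most of its sampled length. Averaged over its 67 tested CpGs, the mid-aged mice had 51.7%, 50.4%, 46.7% and 48.8%, and the young mice 26.1%, 21.0%, 22.3% and 23.6%. The 2 ages did not overlap, and the lowest mid-aged mouse was above the highest young mouse. The group means were 49.4% ± 2.18 and 23.3% ± 2.19 (SD, n = 4 each), a difference of 26.2 percentage points. All 67 CpGs had the higher mean in mid-aged mice, by 1.06 to 52.1 points with a median of 25.7 points, against a median of 0.21 points over all tested CpGs.

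A CpG was called when its adjusted p in the quasi-binomial fit over all CpGs was under 0.05, the means differed by at least 5 points and the variance of the fractions was under 0.05 in both groups. By this rule 46 of the 67 CpGs of *C1ql3* were called higher and 0 lower, beside 0.0615% called higher and 0.163% called in either direction among all tested CpGs. Since these calls chose the gene, nothing is read from that count. At 53 of the 67 CpGs every mid-aged mouse was above every young mouse, a pattern that 2.33% of all tested CpGs showed. All 46 called CpGs are among these 53, so nothing is read from this count either. Just inside the threshold were the CpGs at 13010908 (22.4% against 0%) and 13011016 (42.9% against 14.1%), and just outside it those at 13009187 (80.2% against 58.3%) and 13009734 (40.1% against 25.8%).

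**Figure D1:**
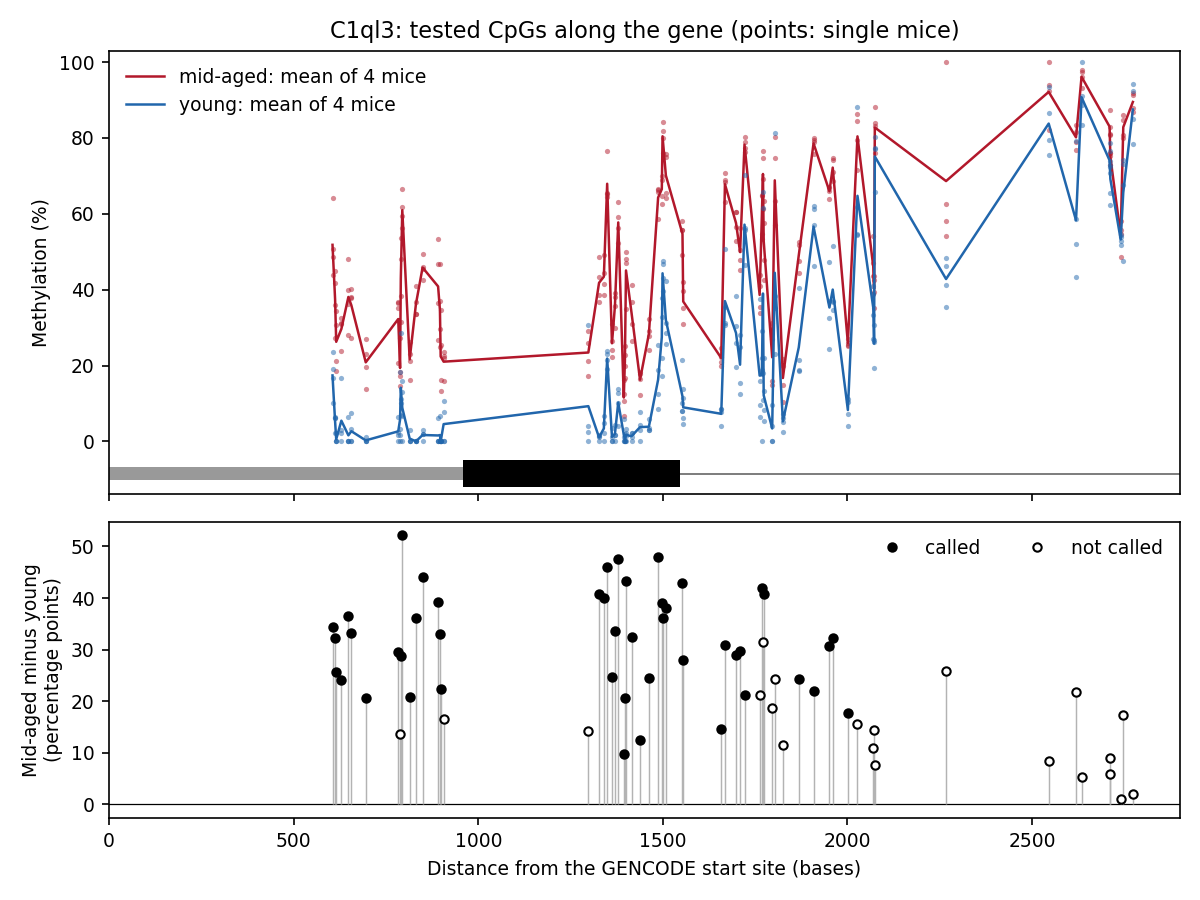
Methylation of the 67 tested CpGs of *C1ql3* against their distance in bases from the GENCODE start site (upper panel, percent; points are single mice, lines join the means of 4 mid-aged (red) and 4 young (blue) mice; the bar under them shows untranslated exon in grey, coding exon in black and intron as a line) and the mid-aged minus young difference in percentage points (lower panel; filled points are called CpGs). The young mean over tested CpGs climbs from 4.16% before the start codon (605 to 906 bases) to 63.5% beyond 2001 bases. The differences are between 9.79 and 52.1 points up to 2001 bases and between 1.06 and 25.8 points beyond.

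The calls fell into 2 runs, groups of at least 3 called CpGs with at most 200 bases between neighbours. No CpG was tested between 13010508 and 13010900. The runs are parted by this unsampled stretch, so they cannot be told from a continuous region. The run nearer the start site spanned 13010908 to 13011202 of chromosome 2, where 16 of 17 tested CpGs were called. Its mean was 35.1%, 37.3%, 31.6% and 36.5% in the mid-aged mice and 5.48%, 2.81%, 3.19% and 5.04% in the young mice. The young mice were thus almost unmethylated there, and the mid-aged mice had about 1 methylated read in 3. The means were 35.1% ± 2.52 and 4.13% ± 1.33 (SD, n = 4 each), 31.0 points apart, with 57.1 to 103.6 reads per CpG at mid-age and 20.6 to 75.2 at young age.

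The position of this run relative to the gene depends on the annotation. In GENCODE it lies in the 5′ untranslated part of exon 1, 605 to 898 bases downstream of the start site. RefSeq starts the gene at 13010864, which puts the called CpGs of the run 44 to 337 bases upstream of the start. The largest difference in the family with at least 10 reads in every mouse was in this run, at 13011012, where the mid-aged mice had 59.3%, 61.7%, 66.7% and 56.2% and the young mice 0%, 12.9%, 6.67% and 15.8%. The tested CpG nearest the GENCODE start site, at 13011201, had 43.8% to 64.3% in mid-aged and 10.2% to 23.5% in young mice. At 13010975 all 4 young mice had 0% and the mid-aged mice 33.5% to 41.0%.

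The other run spanned 13009805 to 13010480, where 30 of 35 tested CpGs were called, and crossed from the first coding exon into the intron. Its mean was 51.4%, 49.8%, 45.7% and 47.2% in mid-aged and 22.1%, 15%, 18.6% and 18.4% in young mice, 30.0 points apart. The stretch of the coding exon that holds all of its tested CpGs is shown because 16 of its 17 CpGs were called, in a part of the gene that encodes protein (5′ to 3′ on the minus strand, tested CpGs in capitals).

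C1ql3 coding exon 1, chr2:13010298-13010509: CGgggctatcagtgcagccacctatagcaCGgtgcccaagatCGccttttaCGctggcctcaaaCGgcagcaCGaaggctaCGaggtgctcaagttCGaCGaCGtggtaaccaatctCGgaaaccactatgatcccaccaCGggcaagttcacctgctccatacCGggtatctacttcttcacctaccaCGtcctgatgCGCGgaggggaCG

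Over these 17 CpGs the mid-aged mice had 47.0%, 43.9%, 39.1% and 42.6% and the young mice 11.4%, 10.4%, 10.7% and 10.4%. The means were 43.1% ± 3.3 and 10.7% ± 0.478 (SD, n = 4 each). Neighbouring CpGs in this exon differed widely in level but not in direction. At 13010412 the mid-aged mean was 11.6% against 1.77% in young mice, and at 13010427, which is 15 bases away, it was 57.7% against 10.2%. At 13010319 the mid-aged mice had 66.7%, 65.6%, 58.6% and 66.3% and the young mice 8.47%, 12.4%, 18.7% and 25.5%. The single CpG of the exon that was not called, at 13010508, had 17.2% to 29.2% in mid-aged mice, with young mouse 1 at 30.8% and the other young mice at 0% to 3.93%.

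The beginning of the intron is shown for comparison, because it holds both called and uncalled CpGs. It runs from the first tested CpG of the intron over 252 bases in the direction of the gene.

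C1ql3 intron 1, chr2:13010003-13010254, minus strand: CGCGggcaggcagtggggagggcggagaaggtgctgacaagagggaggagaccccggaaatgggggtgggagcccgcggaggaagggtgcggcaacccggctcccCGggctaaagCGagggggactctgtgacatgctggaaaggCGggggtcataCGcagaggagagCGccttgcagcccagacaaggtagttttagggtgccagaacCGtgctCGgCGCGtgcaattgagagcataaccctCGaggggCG

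Of its 13 tested CpGs 9 were called. The uncalled CpGs there included 13010035, where the mid-aged mice had 61.4% to 76.7% and the young mice 65.6%, 11%, 17.9% and 61.4%, so that the young mice fell apart by over 50 points. At 13010003 young mouse 1 had 81.2% and the other young mice 22.9% to 38.4%. Over the 19 tested intron CpGs up to the last call, young mouse 1 had 32.1% and the other young mice 18.4% to 24.8%, whereas the mid-aged mice had 50% to 54.1%. Young mouse 1 had the shallowest library, and at 20 of the 67 CpGs of *C1ql3* it alone was the highest of the 4 young mice, against 14 to 17 CpGs for each other young mouse. Without it 69 CpGs of *C1ql3* could be tested, the gene mean differed by 27.2 points and 54 of these CpGs were called. Calls over the whole series rose too, from 1466 to 2328.

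Further into the intron the level was high at both ages. The 13 tested CpGs from 2027 to 2773 bases downstream of the start site, none of them called, averaged 74.7% ± 2.45 in mid-aged and 63.5% ± 2.22 in young mice (SD, n = 4 each). The CpG farthest from the start, at 13009033, had 86.7% to 91.8% in mid-aged and 78.5% to 94.2% in young mice, so the ages overlapped. Over the tested CpGs, the gradient along the gene was steeper in young mice. Their mean was 4.16% over the 18 tested CpGs before the start codon, at 605 to 906 bases, and 10.7% in the coding exon. It was 25.0% in the intron up to the last call and 63.5% beyond it. The mid-aged means over the same segments were 34.3%, 43.1%, 52.0% and 74.7%. The gradient does not extend to the start site, since untested CpGs nearer to it had pooled levels of 28.4% to 36.3% in young mice.

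The size of the difference varied with the level in young mice. Of the 32 CpGs of *C1ql3* under 10% in young mice 27 were called, with a median difference of 25.2 points. Of the 23 CpGs between 10% and 50% 17 were called, with a median of 31.5 points, and of the 12 at 50% or more 2 were called, with a median of 8.63 points. Over the whole series 108 of the 404567 tested CpGs under 10% in young mice were called higher, and the 27 of *C1ql3* are among these 108. Between 10% and 50% it was 326 of 77326, and at 50% or more 118 of 415392, which include the 17 and 2 of *C1ql3*. The calls chose the gene and the young level is part of the difference, so nothing is read from this pattern. In the other direction no CpG of *C1ql3* was under 10% in mid-aged mice, against 32 in young mice.

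**Figure D2:**
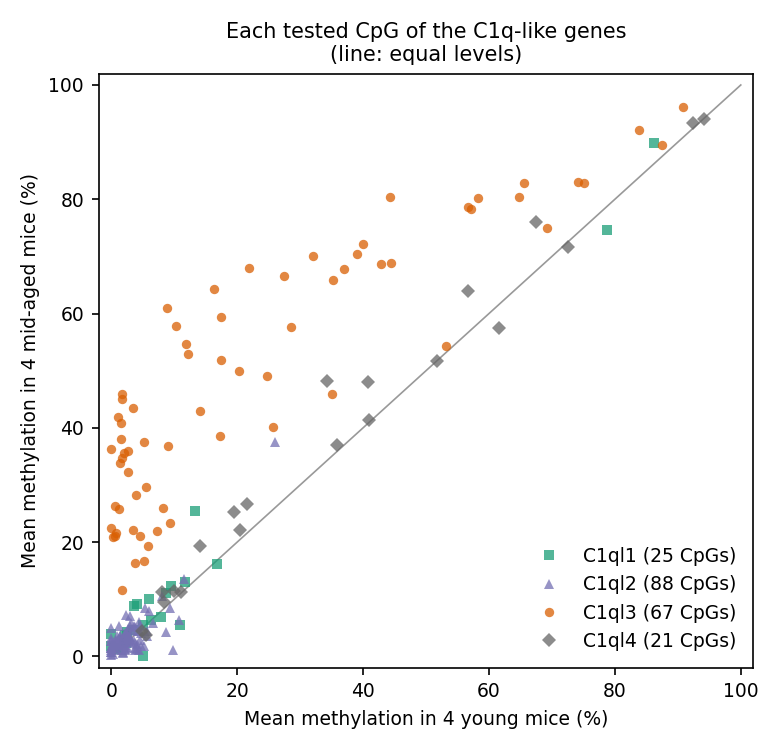
Mean methylation in 4 mid-aged mice (vertical axis, percent) against that in 4 young mice (horizontal axis, percent) for the 201 tested CpGs of the 4 genes, with a line at equal levels. All 67 CpGs of *C1ql3* lie above the line, farthest at low and intermediate young levels, and the CpGs of the other genes lie on both sides of it. Above the line are 19 of 25 in *C1ql1*, 59 of 88 in *C1ql2* and 15 of 21 in *C1ql4*, beside 53.7% of all tested CpGs.

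CpGs that missed the depth rule were read where any mouse had reads, as pooled reads with 95% Wilson intervals that cover counting error only. The intervals take reads of neighbouring CpGs as independent, though 1 fragment can cover several CpGs, so they can be too narrow. From the GENCODE start site to the first tested CpG of *C1ql3*, 28 CpGs had 22 to 291 reads in a mid-aged mouse and 152 to 501 in a young mouse. The pooled level was 40.9% (23.3% to 61.3%), 61.7% (55.8% to 67.4%), 59.5% (53.7% to 64.9%) and 67.7% (60% to 74.6%) in the mid-aged mice. It was 36.3% (31.0% to 42.0%), 35.1% (31.1% to 39.4%), 28.4% (24.5% to 32.6%) and 30.3% (23.5% to 38.0%) in the young mice. Every mid-aged mouse was above every young mouse, but mid-aged mouse 1, with 22 reads over 6 CpGs, had an interval that held the levels of all young mice. Different mice read different CpGs there, so the pooled levels do not compare like with like. With the same limit, the 19 untested CpGs of the first coding exon had 20.6% to 45.7% in mid-aged and 0% to 9.09% in young mice. The 11 in the rest of the 5′ untranslated part had 31.3% to 50% and 0% to 22.2%. The 10 of the intron had 45.6% to 50.8% and 15% to 30.4%. Reads per young mouse were few, at 11 to 49 in the exon and 9 to 47 in the rest of the untranslated part. The upstream window of *C1ql3* held 14 CpGs and 2 reads in all 8 mice, and its methylation could not be determined.

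The neighbourhood of *C1ql3* gave few values. Of the 5 tested CpGs in the 20000 bases downstream of its window 0 were called, with means of 90.9% in mid-aged and 94.9% in young mice, and the 20000 bases upstream held no tested CpG. The next protein-coding gene, *Pter*, which encodes a phosphotriesterase-related protein and in GENCODE ends 2 bases from *C1ql3*, had 40.7% ± 1.74 and 41.4% ± 0.804 over 12 tested CpGs (adjusted p = 0.808, limma). *Rsu1*, a suppressor of Ras signalling on the other side, had 94.5% ± 0.985 and 94.2% ± 0.627 over 46 CpGs (adjusted p = 0.913, limma). The locus also carries *Gm37811*, a gene model that overlaps the exon and the start of the intron, and methylation cannot be assigned to one gene or the other.

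*C1ql2* was almost unmethylated at both ages. Its 88 tested CpGs averaged 4.02%, 4.0%, 3.22% and 3.60% in mid-aged and 2.79%, 3.41%, 2.93% and 3.18% in young mice. The groups overlapped, since mid-aged mouse 3 lay between the 2 highest young mice. The difference was 0.63 points (95% confidence interval 0.06 to 1.21; unadjusted p = 0.0345, adjusted p = 0.360, limma over all genes), and the mean was not called. For all genes, 0.609% of the 16422 gene means were called. No CpG of *C1ql2* was called, beside 0.163% of all tested CpGs. Of the 88 CpGs, 85 had a mean under 10% in each group, and 59 had the higher mean in mid-aged mice. The smallest adjusted p among its CpGs was 0.30 in the quasi-binomial fit, and 10 of the 88 CpGs had an unadjusted p under 0.05, as had 9.09% of all tested CpGs. Of all tested CpGs 53.7% had the higher mean in mid-aged mice.

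The CpGs just before the start site of *C1ql2* are shown because they are the only tested CpGs of the family directly upstream of a start that both annotations place at the same base.

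C1ql2 upstream, chr1:120340489-120340571, plus strand: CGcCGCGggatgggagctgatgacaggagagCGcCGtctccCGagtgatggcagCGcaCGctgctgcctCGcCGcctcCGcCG

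All 12 CpGs of this stretch were tested, and they averaged 3.19% in mid-aged and 3.73% in young mice. The first tested CpG of *C1ql2*, 1495 bases upstream at 120339087, stood apart from the rest of the gene. The mid-aged mice had 35.3%, 40.0%, 40.3% and 34.2% there and the young mice 29.2%, 20.9%, 29.0% and 25.0%, and the groups did not overlap. This was the largest difference of *C1ql2*, 11.4 points, and it did not pass the test (adjusted p = 0.521, quasi-binomial test over all CpGs). The last tested CpG, in the 3′ untranslated part, had 2.06% to 7.14% in mid-aged and 0% to 14.3% in young mice.

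*C1ql1* was low near its start and high in the middle of the intron. Its 25 tested CpGs averaged 12.8%, 12.2%, 12.6% and 13.9% in mid-aged and 11.3%, 11.8%, 10.6% and 12.4% in young mice, with 1 young mouse inside the mid-aged range. The difference of the means was 1.36 points (95% confidence interval 0.22 to 2.5; unadjusted p = 0.0254, adjusted p = 0.330, limma over all genes). The 6 tested CpGs of the first coding exon averaged 4.88% ± 2.36 and 2.96% ± 2.76 (SD, n = 4 each). The nearest of them to the start site, at 102946323, had 0% in all 4 young mice and in mid-aged mice 2 and 4, with 1.92% and 5.56% in the other two.

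In the intron the CpGs at 102943759 and 102943771 had mid-aged means of 89.8% and 74.6% and young means of 86.1% and 78.8%. The largest difference of *C1ql1* was at 102945189 in the intron, where the mid-aged mice had 22.2%, 24.7%, 23.0% and 31.9% and the young mice 10.3%, 14.4%, 13.0% and 15.4%. The groups did not overlap and were 12.2 points apart, but the CpG did not pass the test (adjusted p = 0.307, quasi-binomial test over all CpGs). The CpG next to it, at 102945184 and 5 bases away, had 8.70% to 21.1% in mid-aged and 8.99% to 20% in young mice. No CpG of *C1ql1* was called, beside 0.163% of all tested CpGs. Of its 25 CpGs 2 had an unadjusted p under 0.05 in the quasi-binomial fit, beside 9.09% of all tested CpGs. The non-coding RNA gene *Gm26668*, on the plus strand, spans the whole window of *C1ql1*, so methylation there cannot be assigned to one gene or the other.

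*C1ql4*, which is expressed mainly in testis, had an unlike level in its upstream window and in its second coding exon. The 9 tested CpGs upstream, between 69 and 331 bases from the GENCODE start site, averaged 13.3% ± 2.02 in mid-aged and 11.6% ± 2.0 in young mice (SD, n = 4 each). RefSeq also lists predicted transcripts that start farther upstream and include this stretch. The CpG nearest the start, at 99087886, ranged from 19.6% to 41.2% in mid-aged and from 15.1% to 33.3% in young mice. All 11 CpGs of the second coding exon, which encodes the end of the globular domain, were tested, and the exon is shown because the homologous exons of the other 3 genes had no tested CpG.

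C1ql4 coding exon 2, chr15:99084757-99084933, minus strand: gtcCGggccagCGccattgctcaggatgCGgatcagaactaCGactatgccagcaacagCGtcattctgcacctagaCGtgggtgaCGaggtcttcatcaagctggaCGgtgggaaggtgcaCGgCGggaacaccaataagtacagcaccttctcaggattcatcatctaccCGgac

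This exon averaged 61.0%, 60%, 62.0% and 65.3% in the mid-aged mice and 67.2%, 55.7%, 59.0% and 53.9% in the young mice. Young mouse 1 was the highest of all 8 and the other young mice were the lowest, so the groups overlapped. CpGs a few bases apart kept unlike levels at both ages. The CpG at 99084807 had 93.3% ± 2.14 in mid-aged and 92.4% ± 4.05 in young mice, and the CpG at 99084810, 3 bases away, had 48.2% ± 6.59 and 34.2% ± 3.83 (SD, n = 4 each). The latter, with 51.2%, 43.4%, 42.1% and 56.0% in mid-aged and 31.1%, 38.1%, 30.8% and 36.9% in young mice, was the largest difference of the gene, 14.0 points, and did not pass the test (adjusted p = 0.340, quasi-binomial test over all CpGs). At 99084825 young mouse 1 had 93.2% and the other 7 mice 48.0% to 62.0%.

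Over its 21 tested CpGs *C1ql4* had 39.4%, 38.8%, 38.9% and 40.5% in mid-aged and 42.6%, 33.8%, 36.3% and 34.3% in young mice. The difference was 2.66 points (95% confidence interval −1.54 to 6.86; adjusted p = 0.617, limma over all genes). Young mouse 1 decided much of this value. Without it the difference was 4.62 points (adjusted p = 0.0662, limma over all genes), which also did not pass. In the 20000 bases upstream of the window of *C1ql4* 1 of 89 tested CpGs was called, beside 0.163% of all tested CpGs. This CpG, at 99105455, had 9.83% ± 3.94 in mid-aged and 66.9% ± 19.1 in young mice and lay 17638 bases from the start site. The last tested CpG of the gene, in its 3′ untranslated part, had 15.4% to 31.8% in mid-aged and 10.7% to 30.8% in young mice.

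**Figure D3:**
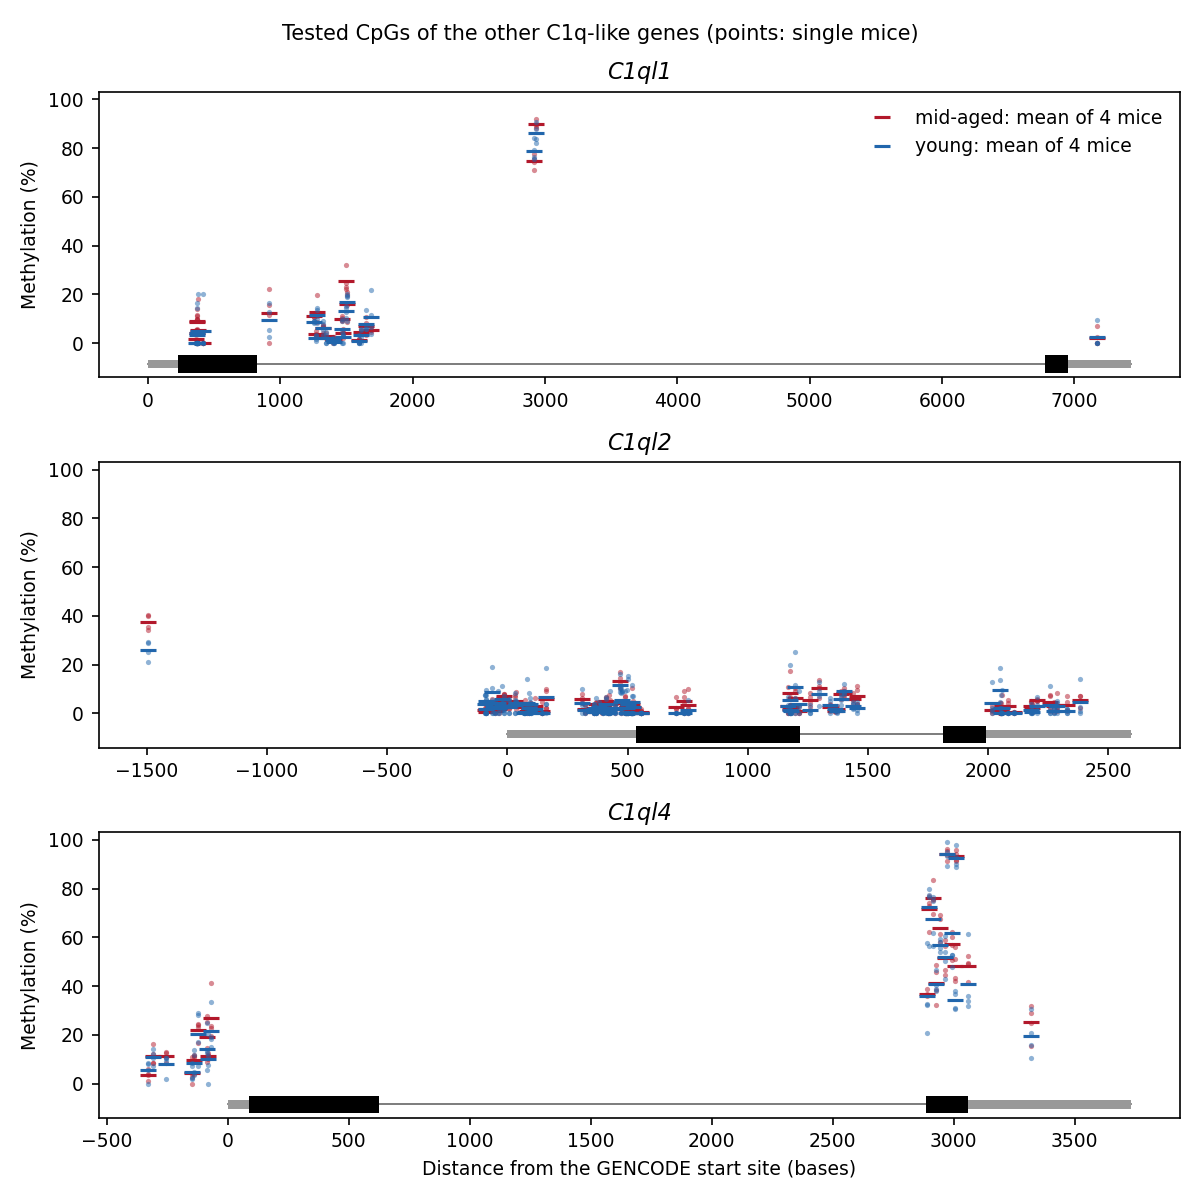
Methylation in percent of the tested CpGs of *C1ql1*, *C1ql2* and *C1ql4* against distance in bases from the GENCODE start site (points are single mice, dashes the means of 4 mid-aged (red) and 4 young (blue) mice; gene bars as for *C1ql3*). *C1ql2* stays under 10% at 85 of its 88 CpGs in each group, *C1ql1* rises to 86.1% in young mice in its intron, and *C1ql4* is low upstream and averages 62.1% and 58.9% in its second coding exon.

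The protein-coding genes on either side of *C1ql1*, *C1ql2* and *C1ql4* held 0 called CpGs, beside 0.163% of all tested CpGs. Beside *C1ql1*, *Kif18b*, a kinesin gene, had 32.2% ± 0.60 in mid-aged and 32.6% ± 1.17 in young mice, and *Dcakd*, the gene of a protein with a dephospho-CoA kinase domain, 36.1% ± 0.766 and 32.6% ± 1.32 (adjusted p = 0.837 and 0.0919, limma over all genes). Beside *C1ql2*, *Steap3*, a metalloreductase gene, had 63.8% ± 0.835 and 64.4% ± 1.01, and *Marco*, a macrophage scavenger receptor gene, 76.7% ± 6.26 and 67.3% ± 10.9 over 4 tested CpGs (adjusted p = 0.80 and 0.554). Beside *C1ql4*, *Troap* had 43.7% ± 0.425 and 44.1% ± 0.638, and *Dnajc22*, a gene of the J-domain chaperone family, 16.3% ± 0.467 and 15.1% ± 0.752 (adjusted p = 0.791 and 0.346).

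Side by side, the gene means differed by 26.2 points in *C1ql3*, 2.66 in *C1ql4*, 1.36 in *C1ql1* and 0.63 in *C1ql2*. Among the 14082 protein-coding genes with at least 10 tested CpGs, these differences ranked 2, 459, 1582 and 3915 from the highest, and the median over all 16422 genes was 0.19 points. CpGs at which every mid-aged mouse was above every young mouse numbered 2 of 25 in *C1ql1*, 2 of 88 in *C1ql2* and 1 of 21 in *C1ql4*, beside 2.33% of all tested CpGs. The reverse order was found at 0 CpGs of the 4 genes, beside 1.24% of all tested CpGs. In the window from 1500 bases upstream to 500 downstream of the start site, the mean differed by 1.92 points in *C1ql1*, 0.52 in *C1ql2* and 1.77 in *C1ql4* (adjusted p = 0.771, 0.684 and 0.741, limma over all promoters), and 0.0164% of 12214 such windows were called. *C1ql3* had no tested CpG in that window.

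**Figure D4:**
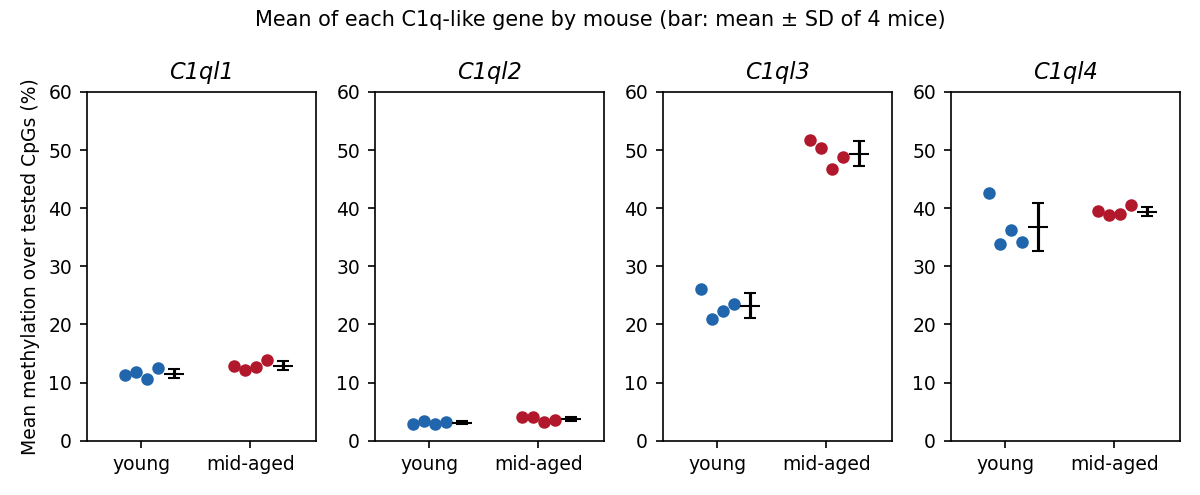
Mean methylation over the tested CpGs of each gene in percent, for each of the 4 young (blue) and 4 mid-aged (red) mice, with the group mean and SD beside the points. The mid-aged mice of *C1ql3* lie between 46.7% and 51.7% and the young mice between 21.0% and 26.1%, and in *C1ql1*, *C1ql2* and *C1ql4* the ages overlap.

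Total reads moved with age, since every mid-aged library had more reads over CpGs than every young one, whereas the median coverage of a tested CpG overlapped, at 41 to 76 reads in mid-aged and 29 to 51 in young mice. When each CpG was thinned to the reads of its shallowest mouse, the mean of *C1ql3* differed by 25.8 points, its runs by 30.2 and 30.6 points, and 40 of its CpGs were called. From the reads of one strand alone the mean differed by 24.9 points (forward) and 27.1 points (reverse). The number of calls depended on the model. The study compared aged and young samples with limma, run in RnBeads. Here limma on M values, the log2 ratio of methylated to unmethylated reads, called 9 CpGs of *C1ql3*, and 40 in the whole series.

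Other liver cells could bear on a level averaged over a preparation. Of 33 marker genes of hepatocytes, leukocytes and Kupffer cells, sinusoidal endothelial cells, stellate cells and cholangiocytes, 25 had a gene mean. Of these 25 means 0 were called, beside 0.609% of all gene means, and at that share 0 calls among 25 says little. The mean of the leukocyte and Kupffer cell markers was 74.9% to 76.1% in mid-aged and 75% to 81.0% in young mice, that of the hepatocyte markers 36.2% to 39.2% and 33.3% to 44.5%, and that of the cholangiocyte markers 35.7% to 38.4% and 35.0% to 36.6%, so that the ages overlapped. Every mid-aged mouse was above every young mouse in the mean of the sinusoidal endothelial markers, at 78.3% to 78.9% against 76.7% to 77.4%, and in that of the stellate cell markers, at 41.1% to 42.4% against 39.8% to 40.9%. The part of these cells in the result for *C1ql3* was not tested. *Csf1r*, the receptor of a macrophage growth factor, had 39.4% ± 2.31 against 51.2% ± 4.16 (adjusted p = 0.0583, limma over all genes).

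Genes of the wider C1q and tumour necrosis factor superfamily carry the same globular domain. Of 27 such genes 24 had a gene mean and 0 of these were called, beside 0.609% of all gene means, and the differences ran from −2.76 to 4.17 points with a median of 0.19. *Cbln1*, the cerebellin that joins parallel fibres to Purkinje cells, had 5.17% ± 0.307 against 3.91% ± 0.218 over 135 tested CpGs (adjusted p = 0.0579, limma over all genes). *Adipoq*, which encodes adiponectin, had 94.0% ± 1.2 against 95% ± 2.86. Of the 828 tested CpGs of these genes 1 (0.121%) was called, beside 0.163% of all tested CpGs, in *Emilin2*, which encodes an extracellular matrix glycoprotein, at 71256207 of chromosome 17, with 33.8% ± 1.02 against 53.4% ± 7.39.

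The 9 genes of binding partners and their relatives analysed here include *Adgrb3* and the kainate receptor subunits *Grik2* and *Grik4*, and all 9 had a gene mean. Of these means 0 were called, beside 0.609% of all gene means. Of their 1514 tested CpGs 0 were called, beside 0.163% of all tested CpGs. All 9 had the higher mean in mid-aged mice, by 0.31 to 1.67 points with a median of 0.78, and 60.7% of all gene means were higher in mid-aged mice, with a median difference of 0.19 points. *Adgrb3* had 63.6% ± 1.47 against 61.9% ± 1.36 (adjusted p = 0.543, limma over all genes).

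The genes whose mean lay closest to that of *C1ql3* over the 8 mice, by root mean square difference, were *Ltb4r2*, a leukotriene receptor, *Usp49*, a ubiquitin protease, *Mapk15*, an atypical MAP kinase, *Hsd17b1*, a steroid dehydrogenase, and *Mmp23*, a metalloproteinase. The distance was 6.46 points for *Ltb4r2*, 6.47 for *Usp49*, 6.71 for *Mapk15*, 7.59 for *Hsd17b1* and 8.22 for *Mmp23*. Of these *Mapk15*, with 57.3% in mid-aged and 26.8% in young mice, had a larger difference than *C1ql3*. The likeness covers level and age difference together, since it was measured over both groups.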

How the data were processed

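RRBS libraries of 8 mice (4 per group, 1 library each) were read from the deposited per-CpG tables on mm10. Per the labels and the study's methods, reads were trimmed and aligned, and the submitters' processing notes name BWA 0.6.2 as well as Trim Galore 0.4.2, Picard 1.115 and SAMtools 1.3. The methylation caller was not given in the sources used here. The deposited tables give percent methylation and the count of reads (coverage) per CpG and strand. Methylated reads were recovered from percent and coverage and were whole in 100% of entries, and both strands were summed. Intervals and levels cover PCR reads without molecular identifiers, so counting error only.

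CpGs with at least 5 reads in every mouse were tested genome-wide by a quasi-binomial logistic model with dispersions moderated in limma 3.58.1 (R 4.3.3). Gene and promoter means over at least 3 tested CpGs were tested with limma (trend) over all protein-coding GENCODE vM21 genes. P-values were adjusted by Benjamini-Hochberg. The models were tested on simulated data. Named CpGs were, by rule, the largest difference with at least 10 reads in every mouse, the first, last and nearest to the start site of each gene, the runs of calls, and, in the lists, called genes and CpGs. Other named CpGs, *Csf1r* and list examples were chosen after their values were seen. The members and lists were chosen with earlier results of these data known. One gene of the list of binding partners is not reported here.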

Additional observations from a re-analysis of the deposited data

Results flagged for a closer look

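Of 48 groups of 4 mice checked over gene means, gene parts, runs and the CpG with the largest difference of each gene, 1 held a mouse far from the others, and chance gives about 1 in 20. In the single tested CpG of the 3′ untranslated part of *C1ql1*, young mouse 2 had 9.52% and the other young mice 0%.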

How the results depend on the processing

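The alternatives were limma on M values, minima of 3 and 10 reads, a minimum difference of 20 points, single strands, pooled reads, thinning, an arcsine scale, at least 10 CpGs per gene, the promoter window, a replicate block and leaving out each mouse. *C1ql1*, *C1ql2* and *C1ql4* had 0 called CpGs with M values, both minima, the 20-point minimum, thinning, the block and each mouse left out, and no called mean with both minima, single strands, pooled reads, thinning, the promoter window, the block and each mouse left out. *C1ql3* had 9 called CpGs with limma on M values and 38 to 54 when a mouse was left out, with 67 to 74 then tested. Its mean differed by 23.8 points with reads pooled over CpGs and by 25.4 to 27.2 points without a mouse. Run 2, nearer the start site, differed by 35.0 points on the forward strand, where 6 CpGs remained. The mean of *C1ql1* differed by −0.50 points with pooled reads (adjusted p = 0.897, limma), and the cause was not tested. The promoter window gave no value for *C1ql3*.

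Over the series, 1466 CpGs were called (552 higher, 914 lower), 40 with limma on M values (16 and 24) and 612 to 2328 without a mouse. Of genes 100 were called, 33 to 67 without a mouse. Of promoters 2 were called, 1 to 3 without a mouse, 10 on the arcsine scale and 8 with at least 10 CpGs. Replicate numbers did not pair the mice, since the deviations of same-numbered mice correlated at −0.0025 to 0.0081. With the replicate block 3637 CpGs, 18 genes and 1 promoter were called, with 53 CpGs of *C1ql3*, and it changed no call of the means of *C1ql1*, *C1ql2* and *C1ql4*. The causes of these moves were not tested.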
